A study of Mus musculus with 3 samples.

Results

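The 45 genes described here encode the proteins that copy DNA: the origin recognition complex, the proteins that load the helicase, the MCM2-7 helicase and its activators, the replicative polymerases, the sliding clamp and its loader, the single-strand binding protein, the enzymes that join lagging-strand fragments, the enzymes that supply deoxynucleotides, and Uhrf1. They were chosen by gene symbol as a list of textbook members, by a rule that uses no measured value. Earlier results of these data were known when the list was made. Each of the 45 symbols had a row among the 19471 genes of the deposited table. The series belongs to a study of the histone variant H2BE in the brain, and the libraries come from cortical astrocytes of wild-type (WT) mouse pups, given as P1 in the sample titles while the sample descriptions carry P0 and Ctrl. The cells were kept in culture for 7 days before RNA was taken, and no treatment, promoter or transgene is named. There is 1 group of 3 libraries, replicates 1, 2 and 3, each named for another pup, so no genotype, age or treatment can be compared, and effects of the pup, its culture and its library cannot be told apart. Values are the authors' normalized read counts, which are reads per gene divided by 1 factor per library and not by gene length.

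DNA is copied once per cell cycle because loading and firing of the helicase are kept apart in time. In G1 the origin recognition complex, Cdc6 and Cdt1 load pairs of MCM2-7 rings onto DNA, and in S phase Cdc45 and the GINS complex turn these rings into active helicases that the polymerases follow. Many of these genes are induced by E2F transcription factors as cells enter S phase. Astrocytes in the perinatal cortex still divide, and astrocytes put into culture keep proliferating for some time.

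Letters of the kind that E2F factors are known to bind stood before the start of 10 of these genes. Some of the stretches are shown because, of the 4 kinds of promoter letters searched, this one had the highest ratio between its share in the replication genes and its share in all expressed genes. The 8-letter words searched on both strands were TTTCCCGC, TTTGGCGC, TTTGCCGC and TTTCGCGC, in the 250 bases before each RefSeq start (build GRCm38.p6). Of the 45 genes, 37 had such a window, and 10 of them (27%) held at least 1 word, against 3.92% of the 10688 genes averaging at least 10 normalized counts that had a window and 2.16% of all 27025 genes with a window. The 10 were Mcm6, Mcm5, Mcm7, Uhrf1, Orc3, Pola1, Rfc3, Cdc6, Gins3 and Orc1. The stretches of the 2 genes with the highest and the 2 with the lowest counts among these 10 are printed 5′ to 3′ on the gene's strand, with the words in capitals, for Mcm6 at chr1:128359706-128359855 (minus strand), Mcm7 at chr5:138172030-138172059 (minus), Gins3 at chr8:95633507-95633536 (plus) and Orc1 at chr4:108579416-108579445 (plus).
Mcm6: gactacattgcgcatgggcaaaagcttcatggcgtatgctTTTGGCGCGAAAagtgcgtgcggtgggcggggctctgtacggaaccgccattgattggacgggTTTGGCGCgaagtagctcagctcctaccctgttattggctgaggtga
Mcm7: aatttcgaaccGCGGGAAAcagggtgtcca
Gins3: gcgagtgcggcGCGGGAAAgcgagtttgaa
Orc1: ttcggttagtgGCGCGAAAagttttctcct
Mcm6 held 3 matches, beginning at positions -110, -106 and -47 relative to the start, of which the first pair overlap on opposite strands. In Mcm7, Gins3 and Orc1 the single match began at -165, -41 and -27 and read as the reverse complement of a word. These 3 stretches lie wholly or partly in annotated exons of GENCODE transcripts. Mcm5 held 2 matches, so 2 of the 37 genes (5.41%) had more than 1, against 0.103% of the expressed genes.

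The other letters searched had shares closer in ratio to those of expressed genes, although the gap for CCAAT was as wide in percentage points. The word CCAAT, on either strand, was found before 24 of the 37 genes (64.9%) and before 40.3% of the expressed genes. The word GGGCGG was found before 27 (73%), against 64%, and the word TATAAA before 3 (8.11%), against 7.91%. Among genes of mitosis 1 of 27 (3.7%) held an E2F word and 19 (70.4%) held CCAAT. A further list of replication factors outside the 45 genes had an E2F word before 6 of 32 (18.8%) and CCAAT before 12 (37.5%). The median GC content of the windows was 62.4% for the 45 genes' windows and 61.6% for those of expressed genes. A match is a description of the letters, not of a bound site, and 8 of the 45 genes had no window in the table.

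**Figure D1:**
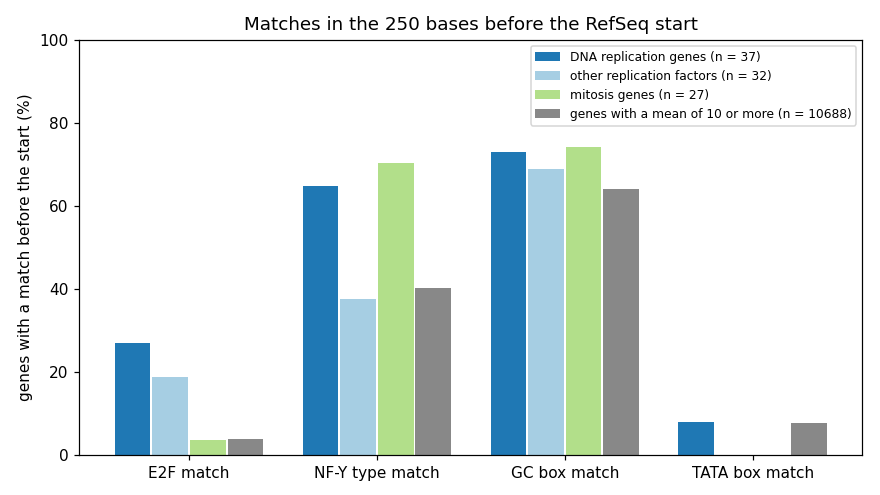
Bars give the share of genes, in percent, with at least 1 match in the 250 bases before the RefSeq start, for 37 DNA replication genes, 32 other replication factors, 27 mitosis genes and 10688 genes averaging at least 10 normalized counts; the NF-Y type match is the CCAAT word. The E2F bar of the replication genes stands at 27% against 3.92% for expressed genes and 3.7% for mitosis genes.

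The cultures held the transcripts that their label names. All 12 astrocyte markers averaged at least 10 normalized counts, led by Gfap, Apoe and Clu, and their summed share of a library's reads was 1.61% to 1.93%. All 12 microglial markers averaged at least 10 as well, led by Csf1r, Ctss and C1qa, with a summed share of 0.212% to 0.312%. At the same level were 7 of 7 ependymal markers (led by Foxj1, Dnah9 and Rsph1, 0.0997% to 0.136%), 6 of 7 of oligodendrocyte precursors (Olig1, Olig2 and Pdgfra, 0.0546% to 0.0754%) and 6 of 7 of fibroblasts (Islr, Ogn and Col1a2, 0.0520% to 0.0567%). Of the neuronal markers 6 of 10 reached it (Syt1, Tubb3 and Syp, 0.00326% to 0.00553%), and 3 of the 5 endothelial markers measured did (Kdr, Flt1 and Cdh5, 0.00645% to 0.00717%). The summed share was highest in replicate 1 for the astrocyte, microglial, ependymal, fibroblast and neuronal lists, in replicate 2 for oligodendrocyte precursors and in replicate 3 for endothelial cells. Another library was highest for some lists by the median over markers of the log2 deviation from the mean of the 3 libraries. That median was 0.04, 0.10 and -0.11 in replicates 1, 2 and 3 for astrocyte markers. It was -0.11, 0.22 and -0.11 for fibroblast markers and 0.12, -0.12 and -0.10 for endothelial markers. The endothelial receptor gene Tek rested on 3 reads or fewer in each library. In such bulk RNA a change in the number of dividing cells and a change in RNA per cell cannot be told apart, and the part of each cell type in the values below was not tested. The libraries held 14380993, 25128038 and 9858626 reads for replicates 1, 2 and 3, and a count of 0 allows up to 3 reads, or a normalized count of 1.42 to 3.59, a limit that covers counting error only.

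All 45 genes were detected, with averages over the libraries between 17.7 and 2456 normalized read counts. Of these, 41 averaged at least 100 and 12 at least 1000. Their median was 352, and 347 was the median of all genes averaging at least 10. Per kilobase of annotated exon the median was 90.8, against 71.7 for the 13897 expressed genes with a length, and 27 of the 45 lay above that value. Per kilobase of coding exon it was 317, against 239. That scale divides all reads of a gene, those outside its coding exons included, by its coding length. A gene with much untranslated exon can therefore stand higher on it. The summed share of the 45 genes was 0.223%, 0.232% and 0.228% of the reads of replicates 1, 2 and 3, which averages 0.227% ± 0.00442 (SD, n = 3). The highest of these shares was 1.04 times the lowest. Levels of different genes are compared per kilobase of exon below. The lengths count every annotated exon, including those of rare transcripts, so the order also depends on the annotation.

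**Figure D2:**
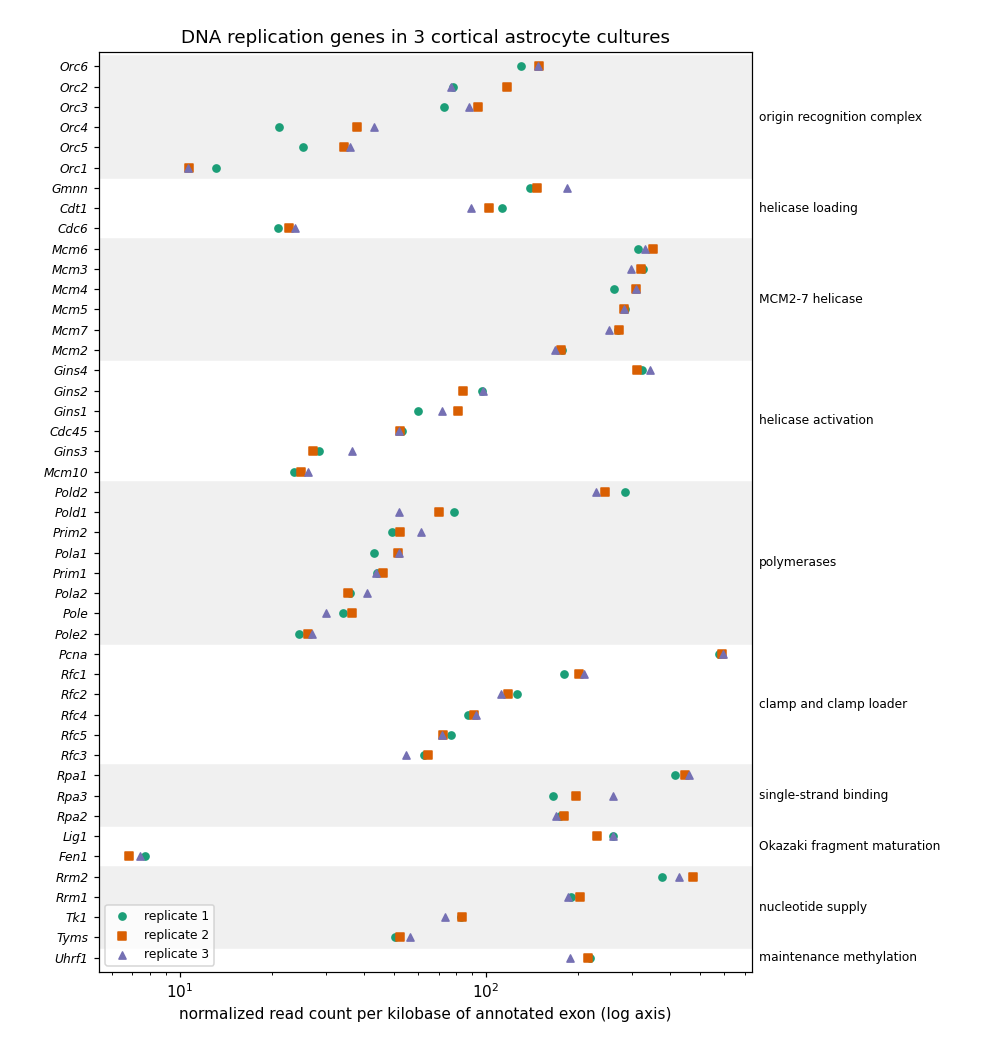
Each point is 1 library's normalized read count per kilobase of annotated exon (log axis) for 1 of the 45 DNA replication genes, ordered by role and then by mean. Pcna lies at the upper end with 575 to 592 and Fen1 at the lower end with 6.82 to 7.72, and the 3 libraries of a gene mostly lie closer together than the genes do.

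The origin recognition complex marks the sites where replication can start, and its 6 subunits were far apart in level. Orc6, its smallest subunit, had 130, 149 and 148 normalized counts per kilobase of exon in replicates 1, 2 and 3. Orc1, an ATPase subunit whose level follows the cell cycle, had 13.1, 10.7 and 10.7 on the same scale. Orc6 thus lay 9.91-fold to 13.9-fold above Orc1 within a library, and 19.3-fold to 27.1-fold above it per kilobase of coding exon. The normalized counts of Orc1, 45.5, 37.3 and 37.1 in replicates 1, 2 and 3, were the second lowest of the 45 genes. Orc2, Orc3, Orc4 and Orc5 lay between Orc6 and Orc1 in each library, with means of 90.8, 85.1, 34.0 and 31.8 per kilobase. The exons of Orc1 overlap the antisense gene Gm12743 over 10.8% of their length, and Gm12743 averaged 7.86 ± 3.95 normalized counts (SD, n = 3).

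The loading factors stood in the order Gmnn, Cdt1, Cdc6 per kilobase of exon. Gmnn encodes geminin, which binds Cdt1 and blocks further loading once S phase has begun, and it averaged 156 ± 23.98 per kilobase (SD, n = 3). Cdt1, which brings the MCM2-7 ring to the origin, averaged 101 ± 11.7. Cdc6, the ATPase that acts with it, averaged 22.5 ± 1.41. The inhibitor and its target differed in which library was highest. Cdt1 had normalized counts of 353, 322 and 280 in replicates 1, 2 and 3, and Gmnn had 203, 215 and 269. The ratio of Cdt1 to Gmnn counts was 1.74, 1.501 and 1.04. Replicate 1 was the highest library for Cdt1 and replicate 3 the highest for Gmnn. Against read sampling both genes differed between libraries in the chi-square test given below, but both calls ended without replicate 3 (adjusted p = 0.176 for Cdt1 and 0.728 for Gmnn), and that of Cdt1 ended with expected reads scaled by GC content (adjusted p = 0.632).

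The 6 subunits of the MCM2-7 helicase, which form a ring of 1 copy each, lay close together, and all but Mcm2 ranked among the 9 highest of the 45 genes per kilobase. Mcm6 was the highest at 331 ± 17.8 normalized counts per kilobase of exon (SD, n = 3), followed by Mcm3 at 314 ± 15.6, Mcm4 at 293 ± 27.0, Mcm5 at 283 ± 1.78, Mcm7 at 265 ± 10.8 and Mcm2 at 174 ± 4.51. The highest subunit lay 1.78-fold to 1.99-fold above the lowest within a library. Per kilobase of coding exon the lowest subunit was Mcm4 instead of Mcm2, and the range narrowed to 1.45-fold to 1.62-fold. On that scale no subunit ranked among the 9 highest of the 45 genes, with ranks between 10 for Mcm6 and 16 for Mcm4. Mcm5 was the steadiest of the 45 genes between libraries, with normalized counts of 1139, 1125 and 1130 in replicates 1, 2 and 3. Mcm2 had 1227, 1225 and 1172, and Mcm7, whose exons overlap those of Ap4m1, Cops6 and the microRNA genes Mir25 and Mir93 over 12.6% of their length, had 1197, 1200.1 and 1116.

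Per kilobase of all annotated exon the helicase activators were lower than the ring itself, apart from Gins4. Gins4, a subunit of the GINS complex, averaged 325 ± 15.7 per kilobase of exon (SD, n = 3), in the range of the MCM2-7 subunits. The other GINS subunits averaged 92.8 ± 7.59 for Gins2, 70.9 ± 10.4 for Gins1 and 30.8 ± 5.06 for Gins3. Cdc45, which joins GINS and MCM2-7 in the active helicase, averaged 52.6 ± 0.672, and Mcm10, which helps to activate it, 25.0 ± 1.29. Gins2 is uncertain per kilobase of exon, because 67.3% of its annotated exon overlaps Gse1 on the opposite strand. Per kilobase of coding exon the direction turned for Gins2, which averaged 685 ± 56.0, and Gins4 averaged 656 ± 31.6, both above the averages of the MCM2-7 subunits, of which Mcm6 was the highest at 620 ± 33.2 (SD, n = 3). On that scale Gins2 lay 8.60-fold to 10.4-fold above Mcm10. Gins2 has 555 coding nucleotides in 4097 of exon, and its reads were not limited to coding exon. Its place on that scale is therefore uncertain too.

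Among the polymerase genes Pold2, an accessory subunit of polymerase delta, was the highest at 253 ± 29.1 normalized counts per kilobase of exon (SD, n = 3). Pold1, the catalytic subunit of the same enzyme, averaged 67.0 ± 13.5, and Pole, the catalytic subunit of the leading-strand polymerase epsilon, 33.6 ± 3.25. Pole2, the second subunit of epsilon, was the lowest at 25.9 ± 1.23. On this scale the 4 subunits of the polymerase alpha and primase complex, which lays the primers, lay within a narrow range. Prim2 was at 54.3 ± 6.31, Pola1 at 48.9 ± 5.02, Prim1 at 44.7 ± 1.20 and Pola2 at 37.4 ± 2.95. The order changed per kilobase of coding exon, where these 4 subunits lay further apart and Pola1 was the lowest of them. There Prim2 was at 213 ± 24.7, Pola2 at 160 ± 12.6, Prim1 at 138 ± 3.71 and Pola1 at 98.05 ± 10.1 (SD, n = 3). Within a library the highest polymerase gene lay 8.46-fold to 11.6-fold above the lowest per kilobase of all annotated exon.

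Pcna, the sliding clamp that holds the polymerases on DNA, was the highest of all 45 genes per kilobase. Its gene (chr2:132249162-132253314, minus strand, mm10) had 575, 589 and 592 normalized counts per kilobase of exon in replicates 1, 2 and 3. Its range did not overlap that of the next gene, Rpa1, the largest subunit of the single-strand binding protein, at 440.4 ± 24.02 (SD, n = 3). The clamp loader genes were lower, with Rfc1, the large subunit, at 196 ± 15.1, Rfc2 at 119 ± 6.79, Rfc4 at 90.7 ± 2.78, Rfc5 at 73.9 ± 2.73 and Rfc3 at 60.7 ± 5.35. The other subunits of the single-strand binding protein were at 207 ± 48.3 for Rpa3 and 175 ± 5.38 for Rpa2. Per kilobase of coding exon the order of the clamp loader genes changed. On that scale Rfc2 was at 663 ± 37.95 and Rfc1 at 342 ± 26.3 (SD, n = 3). Rfc5 was at 317 ± 11.7, Rfc3 at 205 ± 18.1 and Rfc4 at 112 ± 3.45. The exons of Rfc2, Rfc4 and Rfc5 overlap those of Lat2, Eif4a2 and Wsb2 on the opposite strand over 15.1%, 12.7% and 10.7% of their length. Pcna shares 19.1% of its stretches of 50 bases with the annotated pseudogene Pcna-ps2, and how such reads were counted is not given in the sources used here.

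Fen1 and Lig1 encode the flap endonuclease and the ligase that finish lagging-strand fragments, and their values were far apart. Lig1 had normalized counts of 1105, 981 and 1108.5 in replicates 1, 2 and 3. Fen1 had 18.7, 16.5 and 17.9, from 23, 35 and 15 reads, and was the lowest of the 45 genes in each library. Per kilobase of exon Lig1 lay 33.5-fold to 35.1-fold above Fen1. The gene of Fen1 is at chr19:10199132-10204169 (minus strand, mm10), and 84.2% of its 2422 nucleotides of exon overlap exons of Gm10143 and Tmem258 on the plus strand. Tmem258 averaged 807 ± 199 normalized counts (SD, n = 3), and the antisense gene Gm10143 had 1, 0 and 1 reads. The library kit was stranded per the labels, while the strand setting of the counting is not given in the sources used here, and the part of this overlap in the low value was not tested. The value of Fen1 is therefore uncertain.

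The genes of nucleotide supply were led by ribonucleotide reductase, which makes deoxynucleotides. Rrm2, its small subunit and the one made in S phase, averaged 425 ± 49.7 normalized counts per kilobase of exon (SD, n = 3), behind Pcna and Rpa1. Rrm1, its large subunit, averaged 192 ± 8.78, although it had more reads, with normalized counts of 2079, 2225 and 2042 in replicates 1, 2 and 3. Per kilobase of coding exon these subunits lay closer together, with Rrm2 at 941 ± 110 and Rrm1 at 862 ± 39.4 (SD, n = 3). Tk1, which salvages thymidine, averaged 79.9 ± 5.67 per kilobase of exon, and Tyms, which makes thymidylate, 53.2 ± 3.10. Uhrf1, which binds hemimethylated DNA behind the fork and brings in the methyltransferase Dnmt1, averaged 208 ± 16.6 per kilobase of exon. It shares 15.4% of its stretches of 50 bases with Gm15953 and Gm5648. Rrm2 had a normalized count 4.10 to 6.01 times that of Rrm2b, the small subunit of resting cells, a ratio that is not divided by length.

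Ordered by level per kilobase, most neighbours could not be separated by their spread. Of the 44 pairs of neighbours, 33 had overlapping ranges over the 3 libraries. Clear steps stood at both ends of the order: Pcna lay above Rpa1, and Rrm2 above Mcm6, with no overlap, and Cdc6 lay above Orc1 and Orc1 above Fen1 with no overlap. The rest of the 11 pairs without overlap lay between these ends. They were Mcm5 and Mcm7, Lig1 and Uhrf1, Rrm1 and Rpa2, Orc6 and Rfc2, Cdc45 and Pola1, Prim1 and Pola2, and Gins3 and Pole2.

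The libraries were then compared with each other for spread between cultures beyond read sampling. Reads of each gene were set against the shares expected from the library totals with a chi-square test, adjusted by Benjamini-Hochberg over 13941 genes, and a gene was called at an adjusted p under 0.05. Of the 45 genes 21 were called (46.7%), against 55.4% of all genes tested. All 21 averaged at least 100, where 51.2% of the 41 replication genes and 64.5% of all genes were called. The median SD of log2 normalized counts was 0.11 over the 41 replication genes at that level, against 0.14 over all genes at that level. An SD under 0.1 was found for 18 of these 41 (43.9%), against 31% of all such genes, and an SD under 0.3 for 37 (90.2%), against 91.5%. The median gene of the 45 had its highest library 1.15 times its lowest, and 4 genes exceeded 1.5 times.

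A second test counted as noise the spread that genes in general showed between the libraries. With a negative binomial spread that edgeR estimated over all genes, a coefficient of variation of 13.1%, 0 of the 45 genes were called at an adjusted p under 0.05, against 0.904% of all genes tested. At an unadjusted p under 0.05 in the same test 2 genes passed, Orc2 and Orc4, against 7.24% of all genes. The 21 chi-square calls are therefore calls against read sampling alone.

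**Figure D3:**
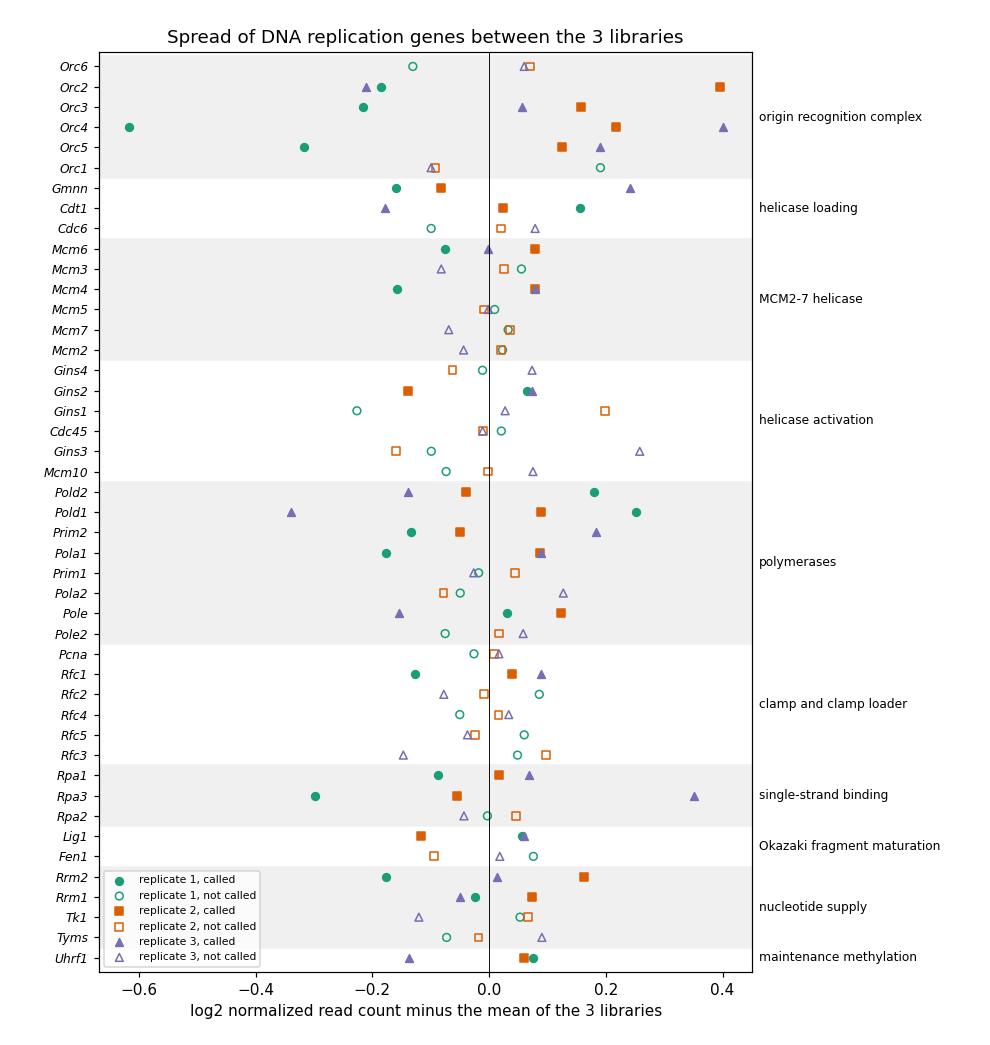
Each point is 1 library's log2 normalized read count minus the mean of the 3 libraries for 1 gene; filled points mark the 21 genes called by the chi-square test (adjusted p under 0.05 over 13941 genes). Orc4, Orc2, Rpa3 and Pold1 spread the widest, while Mcm5, Cdc45 and Pcna lie close to 0 in each library.

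The widest spread was that of Orc4, an ATPase subunit of the origin recognition complex at chr2:48902824-48950277 (minus strand, mm10). It had 158, 282 and 320.5 normalized counts in replicates 1, 2 and 3, a 2.03-fold range (chi-square test, adjusted p = 1.63e-13). Replicate 1 stood apart from the other libraries, and without it the call ended (adjusted p = 0.149, chi-square test). Orc2 had 302, 452 and 297, a 1.52-fold range in which replicate 2 alone was high (chi-square test, adjusted p = 5.90e-13), and without replicate 2 the call ended (adjusted p = 0.836, chi-square test). Orc2 overlaps Nif3l1 on the opposite strand over 29.8% of its exon, and Nif3l1 had 304, 339 and 271. Orc3, with 443, 575 and 536, and Orc5, with 155, 211 and 221, were lowest in replicate 1 like Orc4, and were called at adjusted p = 4.21e-05 and 0.00195 (chi-square test). Without replicate 1 these calls ended too, at adjusted p = 0.386 and 0.691 (chi-square test). Orc6 was not called, and Orc1 was highest in replicate 1 without a call.

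Outside the origin recognition complex, Rpa3, the smallest subunit of the single-strand binding protein, had normalized counts of 188, 223 and 295 in replicates 1, 2 and 3, lowest in replicate 1 and highest in replicate 3 (chi-square test, adjusted p = 1.54e-05). Pold1 ran the other way, with 382, 342 and 254 (chi-square test, adjusted p = 1.11e-05). Without replicate 3 both calls ended, at adjusted p = 0.114 for Rpa3 and 0.0811 for Pold1 (chi-square test). Rrm2 had 1037, 1312 and 1184, highest in replicate 2 (chi-square test, adjusted p = 2.32e-09), and it was the 1 gene of the 21 whose call held without any single library. Cdt1 and Gmnn were called at adjusted p = 0.0233 and 0.0110 (chi-square test). Besides the loss of both calls without replicate 3, that of Cdt1 also ended without replicate 1 (adjusted p = 0.155, chi-square test). Of the 6 helicase subunits 2 were called, Mcm4 with 940.2, 1108 and 1108.5 and Mcm6 with 1466, 1631 and 1543. Both calls ended without replicate 1, at adjusted p = 0.930 for Mcm4 and 0.230 for Mcm6, and that of Mcm6 also ended without replicate 2, at 0.360 (chi-square test).

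By library, 4 of the 21 called genes were highest in replicate 1, 6 in replicate 2 and 11 in replicate 3, which is 4, 6 and 11 of 45 genes against 19.8%, 15.4% and 20.2% of all genes tested. When TMM effective library sizes replaced the library totals, 6 called genes were highest in replicate 1, 9 in replicate 2 and 7 in replicate 3, so that the order of the libraries depended on the scaling. Of the 21, 12 were lowest in replicate 1, 2 in replicate 2 and 7 in replicate 3, against 19.9%, 15.1% and 20.5% of all genes. Without replicate 1 the number of called genes was 10, against 35.8% of all genes tested. It was 17 without replicate 2, with Mcm3 and Rfc2 added and 6 calls ended, against 40.2%. It was 14 without replicate 3, with Gins1 added and 8 calls ended, against 37%.

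The direction of these differences moved with the base composition of the transcript. The GC content of the longest transcript ranged from 34.2% (Rpa3) to 61.0% (Pold1) among the 45 genes, with a median of 47.9%, against 49.7% for all genes tested. Across the 45 genes, Pearson's correlation of GC content with the log2 deviation of a library from the mean of the 3 was 0.800, -0.327 and -0.623 for replicates 1, 2 and 3, with Spearman's rho of 0.763, -0.348 and -0.469. The same held in direction for the 13897 genes tested, at 0.425, -0.135 and -0.291 by Pearson and 0.562, -0.173 and -0.368 by Spearman. These are correlations across genes of the same 3 libraries, and genes are not independent replicates. Of the 15 replication genes with the lowest GC content, 11 were lowest in replicate 1 and 0 were highest there. Of the 15 with the highest GC content, 0 were lowest in replicate 1 and 9 were highest there. Over all genes, the median deviation of replicate 1 ran between -0.22 in the bin of lowest GC content and 0.14 in the bin of highest GC content.

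**Figure D4:**
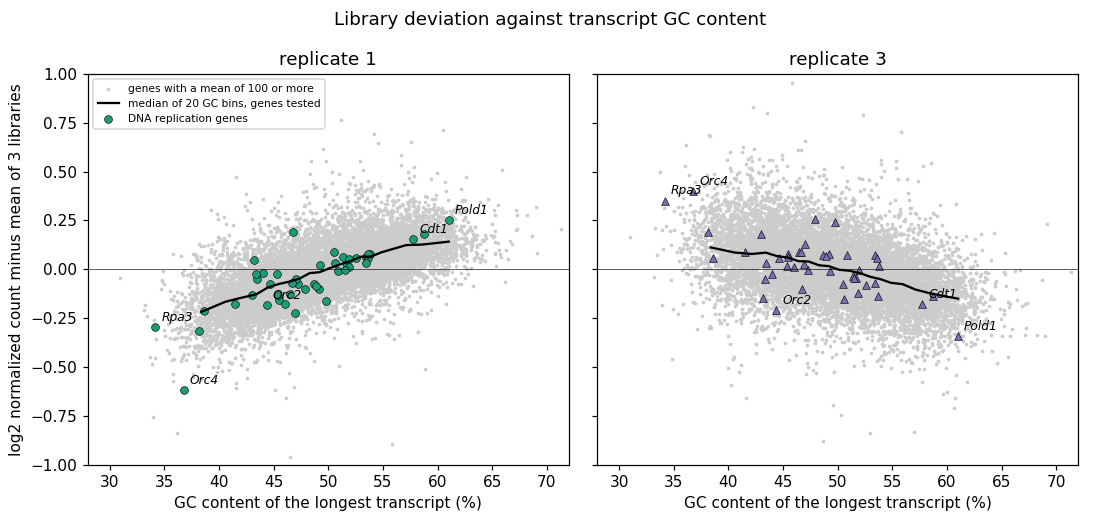
Log2 deviation of replicate 1 (left) and replicate 3 (right) from the mean of the 3 libraries, against the GC content of the longest transcript in percent; grey points are genes averaging at least 100, the line joins the medians of 20 bins of all genes tested, coloured points are the 45 replication genes, and 13 genes lie outside the axes. The replication genes follow the line, which climbs with GC content in replicate 1 and descends in replicate 3.

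When, in a step added after the data were seen, the expected reads were scaled within 20 bins of GC content, 12 of the 45 genes were called, against 45% of all genes tested. Of the 21 calls 11 held and 10 ended, and Rfc3 was added. The calls of Orc4 (adjusted p = 5.56e-06), Orc2 (2.34e-11), Rrm2 (1.85e-06), Rrm1 (6.22e-06), Rpa3 (0.00557), Lig1 (0.00372) and Gmnn (0.0145) held in this chi-square test. Those of Orc3 (0.463), Orc5 (0.548), Pold1 (0.0652), Pold2 (0.532), Cdt1 (0.632) and Pola1 (0.816) were among the 10 that ended. Markers of several cell types also differed between the libraries. Called and highest in replicate 1 were 11 of 12 microglial, 5 of 7 ependymal and 4 of 12 astrocyte markers, against 19.8% of all genes tested, and 2 of 6 neuronal, 1 of 6 fibroblast and 1 of 6 precursor markers tested. Called and highest in replicate 2 were 7 of 12 astrocyte, 4 of 6 fibroblast and 4 of 6 precursor markers, against 15.4% of all genes tested. So was 1 of 3 endothelial markers tested, and no microglial, ependymal or neuronal marker was. Pdgfra is in both the precursor and the fibroblast list. Called and lowest in replicate 2 were 7 of 7 ependymal, 3 of 12 astrocyte and 3 of 12 microglial markers, against 15.1% of all genes tested. With them were 2 of 6 neuronal, 1 of 6 fibroblast and 1 of 3 endothelial markers. Called and lowest in replicate 3 were 8 of 12 astrocyte, 8 of 12 microglial and 5 of 6 precursor markers, against 20.5% of all genes tested. With them were 2 of 6 fibroblast, 1 of 6 neuronal and 1 of 3 endothelial markers. Highest in replicate 3 and called were 2 of 7 ependymal, 1 of 12 astrocyte, 1 of 6 neuronal and 1 of 3 endothelial markers, against 20.2% of all genes tested. The part of base composition, of depth, which was lowest in replicate 3, and of cell types in the differences between libraries was otherwise not tested.

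Other genes of the cell cycle were set beside the 45, from lists of textbook members. Of 40 other replication factors, all averaging at least 10, 20 were called in the chi-square test (50%, against 55.4% of all genes tested), and 13 of the 20 were lowest in replicate 1. Of these factors 37 averaged at least 100, where 64.5% of all genes were called. With GC scaling 14 were called, against 45% of all genes tested. The most abundant were the maintenance methyltransferase gene Dnmt1 at 1629 ± 107, the dNTP hydrolase gene Samhd1 at 1028 ± 76.9 and the checkpoint adaptor gene Topbp1 at 1016 ± 113 normalized counts (SD, n = 3). The lowest were the origin-firing kinase gene Cdc7 at 57.6 ± 2.44, the helicase gene Recql4 at 45.4 ± 6.58 and the cohesion factor gene Dscc1 at 39.4 ± 12.5. Of 24 genes of E2F factors and S-phase entry 16 were called (66.7%), or 11 with GC scaling, against the same 55.4% and 45%. But 23 of the 24 averaged at least 100, where the share of all genes called was 64.5%, close to that of the list. The D cyclin genes Ccnd2 at 8412 ± 1109 and Ccnd1 at 6615 ± 594 and the kinase gene Cdk4 at 2675 ± 176 led that list. The E cyclin genes Ccne2 at 126 ± 27.8 and Ccne1, which had 93.5, 97.6 and 109 normalized counts in replicates 1, 2 and 3, and the E2F gene E2f2 at 112 ± 18.1 were its lowest.

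Mitosis genes were mostly lowest in replicate 1. Of 30 mitosis genes 21 were called (70%), against 64.5% of all genes averaging at least 100, as all 30 do. With GC scaling 15 were called, against 45% of all genes tested. Of the 21, 18 were lowest in replicate 1, which is 18 of 30 genes against 19.9% of all genes tested. Top2a, the topoisomerase that untangles sister chromatids, had normalized counts of 3228, 3949 and 4074 in replicates 1, 2 and 3, Mki67, the proliferation marker, had 3169, 3580.4 and 3964, and Prc1, a protein of the central spindle, had 1321, 1588 and 1712. The lowest of that list were Knl1 at 181 ± 44.3, Ncapg at 162 ± 52.0 and Ttk at 154 ± 23.2 (SD, n = 3). The median log2 deviation of the mitosis genes was -0.13, 0.05 and 0.10 in replicates 1, 2 and 3, and that of the E2F and S-phase entry list -0.11, 0.03 and 0.08. Over the 45 replication genes it was -0.03, 0.02 and 0.02, and over the other replication factors -0.03, 0.01 and 0.02. The median GC content was 44.7% for the mitosis genes and 47.9% for the replication genes, and the difference between the lists was not tested.

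**Figure D5:**
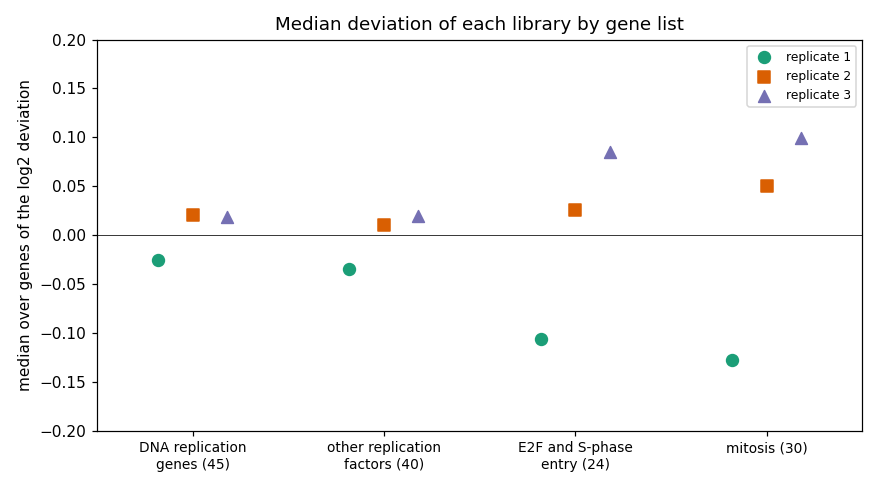
Points give, for each library, the median over the genes of a list of the log2 normalized count minus the mean of the 3 libraries, for the 45 replication genes, 40 other replication factors, 24 genes of E2F factors and S-phase entry and 30 mitosis genes. Replicate 1 lies lowest in each list, at -0.03 for the replication genes and -0.13 for the mitosis genes.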

How the data were processed

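Poly(A) RNA was sequenced in 3 libraries, and the authors deposited a normalized signal per gene. DESeq2 and mm10 are named in the submitters' processing notes. For the aligner, counter, strand setting and filters the entry is: not given in the sources used here. In each library the values were steps of 1 size, that of a single read, and whole reads came back for 100% of them (tolerance 0.05 reads). Identifiers were matched to GENCODE vM21, which held 19366 (99.5%), for lengths, GC content and overlaps. Means and SDs are over the 3 libraries, and log2 values used a pseudocount of 1. The chi-square test took genes averaging at least 10 normalized counts with 30 reads in sum. Its p-values set the spread between cultures against read sampling alone. No test between genes was made. The test and the GC scaling were tested on simulated data with read sampling as the only noise. That setting leaves out spread between cultures, so it cannot show how the test does on these data. The members and lists were chosen with earlier results of these data known. Every member is named, the 3 highest and 3 lowest genes of each other cell cycle list, the 3 highest of each marker list and markers with at most 3 reads in each library. Stretches of 30 bases were printed where annotated exons overlap the window. Python 3.11.15, numpy 2.4.6, pandas 2.3.3, SciPy 1.17.1, matplotlib 3.10.9, R 4.3.3 and edgeR 4.0.16 were used.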

Additional observations from a re-analysis of the deposited data

How the results depend on the processing

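The number of replication genes called between libraries was 21, and it stayed within 1.5 times that number with the deposited size factors, with TMM, with no filter on low values and without the genes that overlap another gene by 20% or more. It was 12 with expected reads scaled by GC content and 0 with the negative binomial spread from edgeR, where 2 genes passed an unadjusted p under 0.05. Leaving out 1 library gave 10 to 17. Those highest in replicate 1 numbered 4, 6 with TMM, 2 with GC scaling, 0 with the negative binomial and 3 to 6 with a library left out. Those highest in replicate 2 numbered 6, 9 with TMM, 0 with the negative binomial and 6 to 11 with a library left out. Those highest in replicate 3 numbered 11, 7 with TMM, 5 with GC scaling, 0 with the negative binomial and 4 to 11 with a library left out. The negative binomial asks for more spread by construction, and leaving out a library removes reads; the cause of the other changes was not tested. The median normalized count of 352 was 348 to 372 with a library left out, 29.8 as CPM and 363 without overlapping genes. The median per kilobase of 90.8 was 7.70 as CPM, 132 by the longest transcript, 317 by coding exons and 96.0 without overlapping genes. The median SD of log2 values of 0.11 was 0.0671 to 0.123 with a library left out. GC scaling, coding exon length and leaving out overlapping genes were chosen after seeing the data. The coding length from a protein table was not run. No paired analysis was possible because there is 1 group. Depth limits Fen1 and Orc1 most.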
